A study of Mus musculus with 8 samples.

Results

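The aminoacyl-tRNA synthetases are the enzymes that join each amino acid to its tRNA, and 36 of their genes were measured in Max KO and control mouse preSC cells. The set held 20 cytosolic enzymes and 16 enzymes whose symbols end in 2, which work in mitochondria, out of 23284 genes in the files. Members were taken from a list of gene symbols and not from their values, and all 36 were among the 13358 genes that passed the filter on low counts.

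Cytosolic and mitochondrial ribosomes draw on separate pools of charged tRNA, so most amino acids have one synthetase gene for each compartment. Gars and Kars are exceptions, since one gene serves both compartments. Eprs charges tRNAs for glutamate and for proline in the cytosol, whereas Ears2 and Pars2 divide these tasks in mitochondria. Mammalian mitochondria have no glutaminyl enzyme of their own: Ears2 loads glutamate onto the tRNA for glutamine, and an amidotransferase then converts it. Transcription of many cytosolic synthetase genes is raised by ATF4, the transcription factor of the amino acid stress response, through a promoter element called CARE. MAX is the dimer partner of MYC, and these dimers bind the E-box sequence CACGTG.

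The preSC culture is a model of the neuroendocrine lung cells from which small cell lung cancer starts. Its source was recorded as Chga-GFP;Rblox/lox;p53lox/lox;p130lox on a mixed 129/SvJ; C57BL/6 strain background, and this holds for the Max KO and the control cells alike. Whether the floxed alleles of Rb1, Trp53 (p53) and Rbl2 (p130) were recombined was not stated. Max KO and control cells share this source, so a difference between them cannot show it, and counts per gene do not show lost exons. Between the groups, Rb1 and Trp53 transcripts did not pass the threshold (log2 fold change 0.23 and 0.05, edgeR adjusted p = 0.184 and 0.718). Rbl2 fell (-0.38, adjusted p = 0.0323), though not in 6 of 8 fits without 1 library. The Max KO group (4 libraries) came from populations given an sgRNA against Max, and the control group (4 libraries) from populations given a control sgRNA. Both were polyclonal, selected with puromycin, expanded and otherwise untreated, and the age and sex of the source animals were not given. Whether the libraries of a group were separate cultures was not stated, so p-values cover only how far these libraries scatter, and that scatter may be technical.

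Reads in genes numbered 14952291 to 19480947 per Max KO library and 13711278 to 19804949 per control library. Levels are given as CPM, each gene's count relative to the library's reads in genes, scaled with TMM factors. At this depth 3 counts correspond to 0.151 to 0.220 CPM, a floor that covers counting error only, and every member lay far above it. Max itself averaged 52.9 ± 12.8 CPM in Max KO and 68.2 ± 5.75 CPM in control (SD, n = 4 each), with overlapping groups (log2 fold change -0.37, SE 0.15, edgeR adjusted p = 0.0955); counts per gene do not show whether a transcript is edited. Of the 8 neuroendocrine markers all were detected, Chga, a secretory granule protein, at 442 ± 34.04 CPM in Max KO and 457 ± 8.75 CPM in control, and 1 rose and 1 fell. Chgb, another granule protein, fell (-0.37, adjusted p = 0.00183), and Uchl1, a neuronal ubiquitin hydrolase, rose (0.41, adjusted p = 0.0496), though not in 7 of 8 fits without 1 library. Calca, a neuropeptide gene, had 525, 556, 589 and 524 CPM in Max KO libraries and 1979.9, 1783, 399 and 467 CPM in control libraries (-1.08, adjusted p = 0.164), so controls 1 and 2 stood apart from controls 3 and 4. Its log2 fold change was -1.78 against controls 1 and 2 (adjusted p = 2.58e-11) and 0.33 against controls 3 and 4 (adjusted p = 0.0373). By contrast, Krt5 of basal epithelium and Lum of fibroblasts had 0 counts in every library. Blood cell, endothelial and other lung epithelial markers summed to 2.79 to 4.47, 0.887 to 1.22 and 6.30 to 8.60 CPM in Max KO and 3.42 to 6.37, 1.01 to 2.12 and 8.30 to 9.62 CPM in control. The 6 fibroblast markers summed to 49.3 to 65.7 CPM in Max KO and 24.4 to 44.5 CPM in control, and Dcn, which rose (0.77, adjusted p = 0.0124), gave most of it. Pdgfra, the other fibroblast marker above the filter, fell to at most 0.339 CPM in Max KO libraries, against 0.785 to 2.27 CPM in control libraries (-2.37, adjusted p = 0.00423), so the list did not move one way. The part of these markers in the results was not tested. In bulk RNA, fewer cells of a type and less RNA per cell cannot be told apart.

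Iars and Iars2 show how the compartments are encoded apart: the isoleucyl enzymes of the cytosol and of mitochondria come from separate genes on separate chromosomes. Promoters are given from RefSeq on GRCm38.p6, from 250 bases before to 50 bases after the annotated start, and 27 of the 36 members had an entry. Iars is shown because it holds both an E-box (CACGTG) and a CARE (searched as TGATGNAA on either strand), in capitals in that order. Aars and Tars, neither past the threshold, also hold both. Iars2 is shown because it held neither although its transcript rose the most of all members.
Iars, chr13:49681880-49682179, plus strand: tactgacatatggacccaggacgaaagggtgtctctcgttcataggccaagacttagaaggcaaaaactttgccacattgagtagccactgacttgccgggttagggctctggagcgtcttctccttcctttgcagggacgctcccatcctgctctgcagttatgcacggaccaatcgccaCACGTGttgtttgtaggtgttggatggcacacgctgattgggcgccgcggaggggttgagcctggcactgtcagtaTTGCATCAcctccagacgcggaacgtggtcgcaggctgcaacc
Iars2, chr1:185329352-185329651, minus strand: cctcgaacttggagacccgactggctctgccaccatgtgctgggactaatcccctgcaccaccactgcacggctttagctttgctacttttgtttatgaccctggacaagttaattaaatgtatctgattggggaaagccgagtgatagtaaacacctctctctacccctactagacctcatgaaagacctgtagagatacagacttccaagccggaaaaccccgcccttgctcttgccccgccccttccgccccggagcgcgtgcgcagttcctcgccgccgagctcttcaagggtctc
Ears2 is shown because it was the only mitochondrial member whose promoter held an E-box, in capitals, and Eprs because its cytosolic enzyme shares the glutamate substrate and its promoter held neither sequence.
Ears2, chr7:122067037-122067336, minus strand: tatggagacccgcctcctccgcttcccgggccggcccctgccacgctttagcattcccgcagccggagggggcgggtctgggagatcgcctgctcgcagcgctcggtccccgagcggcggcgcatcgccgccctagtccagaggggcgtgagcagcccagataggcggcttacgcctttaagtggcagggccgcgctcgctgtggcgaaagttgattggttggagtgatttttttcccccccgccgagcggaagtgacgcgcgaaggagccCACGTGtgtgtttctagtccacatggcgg
Eprs, chr1:185362794-185363093, plus strand: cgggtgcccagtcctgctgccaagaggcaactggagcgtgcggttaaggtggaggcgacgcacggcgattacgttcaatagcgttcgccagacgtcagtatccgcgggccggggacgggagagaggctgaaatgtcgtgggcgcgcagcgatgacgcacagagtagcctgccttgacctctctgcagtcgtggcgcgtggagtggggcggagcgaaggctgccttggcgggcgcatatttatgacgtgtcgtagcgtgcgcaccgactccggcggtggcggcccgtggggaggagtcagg

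Among the cytosolic enzymes, 6 of 20 genes rose in Max KO, 1 fell and 13 did not pass the threshold of an edgeR adjusted p of 0.05. Across all 13358 tested genes 23.1% passed, 10.9% higher and 12.2% lower, against 30% higher and 5% lower for the cytosolic enzymes. Scaling by upper quartiles turned the split of all genes to 1160 higher and 1965 lower, where TMM factors gave 1457 and 1627, and left 3 cytosolic genes risen. Without 1 library in turn 3 to 14 cytosolic genes rose, the largest number without control 3. The log2 fold changes of the 20 genes ran from -0.42 to 0.58 with a median of 0.24, where the median of all tested genes was -0.004, and 17 of the 20 lay above 0. For 7 cytosolic genes every Max KO library was above every control library, and for 1 every Max KO library was below, where 26.4% of all tested genes did not overlap, 13.4% higher and 13.1% lower. These shares are descriptions, and no test over the list was made.

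Rars, the arginyl enzyme, rose the most. It stood at 152, 154, 162 and 143 CPM in the 4 Max KO libraries and at 87.2, 91.4, 126 and 105 CPM in the 4 control libraries (log2 fold change 0.58, SE 0.11, edgeR adjusted p = 0.00263). All Max KO libraries were above all controls, and control 3 was the nearest.

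Eprs is the large bifunctional enzyme that charges both glutamate and proline tRNAs. Max KO libraries held 662, 624, 669 and 630 CPM, against 421, 481, 569 and 443 CPM in control libraries (0.43, SE 0.10, adjusted p = 0.00739). The groups did not overlap, again with control 3 the highest of the controls.

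Wars, the tryptophanyl enzyme, is known in human cells as a gene induced by interferon. Its level was 128, 132, 129 and 139 CPM in Max KO libraries and 95.9, 102, 107 and 105 CPM in control libraries (0.37, SE 0.07, adjusted p = 0.00235). Neither group spread widely, and a gap separated them. Of 10 tested interferon-induced genes 0 rose and 6 fell, where 10.9% of all tested genes were higher and 12.2% lower. Usp18, a protease that removes the ISG15 tag, fell to 7.66 ± 0.582 CPM in Max KO, against 19.0 ± 6.22 CPM in control (-1.32, SE 0.20, edgeR adjusted p = 0.000918). Against controls 3 and 4 alone, 2 of the 10 fell, where 11.3% of all tested genes were lower, and Usp18 had a log2 fold change of -0.86. The part of interferon in the level of Wars was not tested.

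Iars, Cars and Dars passed the threshold by less. Iars, the isoleucyl enzyme, had 179, 202, 193 and 187 CPM in Max KO libraries and 116, 139, 161 and 172 CPM in control libraries (0.37, SE 0.11, adjusted p = 0.0288). Cars, the cysteinyl enzyme, had 166, 159, 155 and 175 CPM in Max KO libraries and 82.3, 111, 147 and 137 CPM in control libraries (0.46, SE 0.15, adjusted p = 0.0452). For both the controls were widely spread, and the highest of them lay just under the lowest Max KO library. Dars, the aspartyl enzyme, had 147, 153, 151 and 143 CPM in Max KO libraries and 142, 126, 125 and 116 CPM in control libraries (0.22, SE 0.07, adjusted p = 0.0491). Here control 1 almost reached the Max KO range, so the groups were apart by a narrow margin. When each of the 8 libraries was left out in turn, Iars was no longer past the threshold in 6 fits, Cars in 5 and Dars in 7. Iars has a processed pseudogene, Gm4849, that matches 1656 bases of its transcript at 96% identity, and reads that align to both may have been lost, so its level is uncertain.

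Qars, the glutaminyl enzyme, was the cytosolic synthetase that fell. It stood at 72.9, 75.0, 76.3 and 78.9 CPM in Max KO libraries, against 107, 105, 104 and 89.8 CPM in control libraries (-0.42, SE 0.08, adjusted p = 0.00202). All Max KO libraries lay below all controls, with control 4 the lowest control. The calls of Qars, Rars, Eprs and Wars held in each of the 8 fits without 1 library.

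Several cytosolic synthetases work together in the multi-synthetase complex, in which Eprs, Iars, Lars, Mars, Qars, Rars, Kars and Dars are held by the scaffold proteins Aimp1, Aimp2 and Eef1e1. This grouping was made after values had been seen. Of its 8 enzymes 4 rose, 1 fell and 3 did not pass, with a median log2 fold change of 0.32, where 10.9% of all tested genes were higher and 12.2% lower. Iars and Dars, both among the 4, lost their call in 6 and 7 of the 8 fits without 1 library. The 12 other cytosolic enzymes had 2 risen and 10 not past the threshold, with a median of 0.22. None of the 3 scaffold genes passed the threshold: Aimp2 had a log2 fold change of 0.19, Aimp1 of -0.02 and Eef1e1 of -0.09 (edgeR adjusted p = 0.43, 0.893 and 0.568). Within the complex, Qars was thus the only enzyme called lower.

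Mars, the methionyl enzyme, came next in p, at 192, 193, 196 and 207 CPM in Max KO libraries and 117, 139, 188 and 173 CPM in control libraries (0.36, SE 0.13, adjusted p = 0.0643). Its groups did not overlap, but it did not pass the threshold. Gars, the glycyl enzyme of both compartments, had a log2 fold change of 0.41 (adjusted p = 0.0831) and Aars, the alanyl enzyme, of 0.32 (adjusted p = 0.093), each with 1 control inside the Max KO range. The remaining 10 cytosolic genes ran from -0.09 for Farsa, the catalytic subunit of the phenylalanyl enzyme, to 0.29 for the leucyl enzyme Lars, with adjusted p of 0.129 to 0.86.

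**Figure D1:**
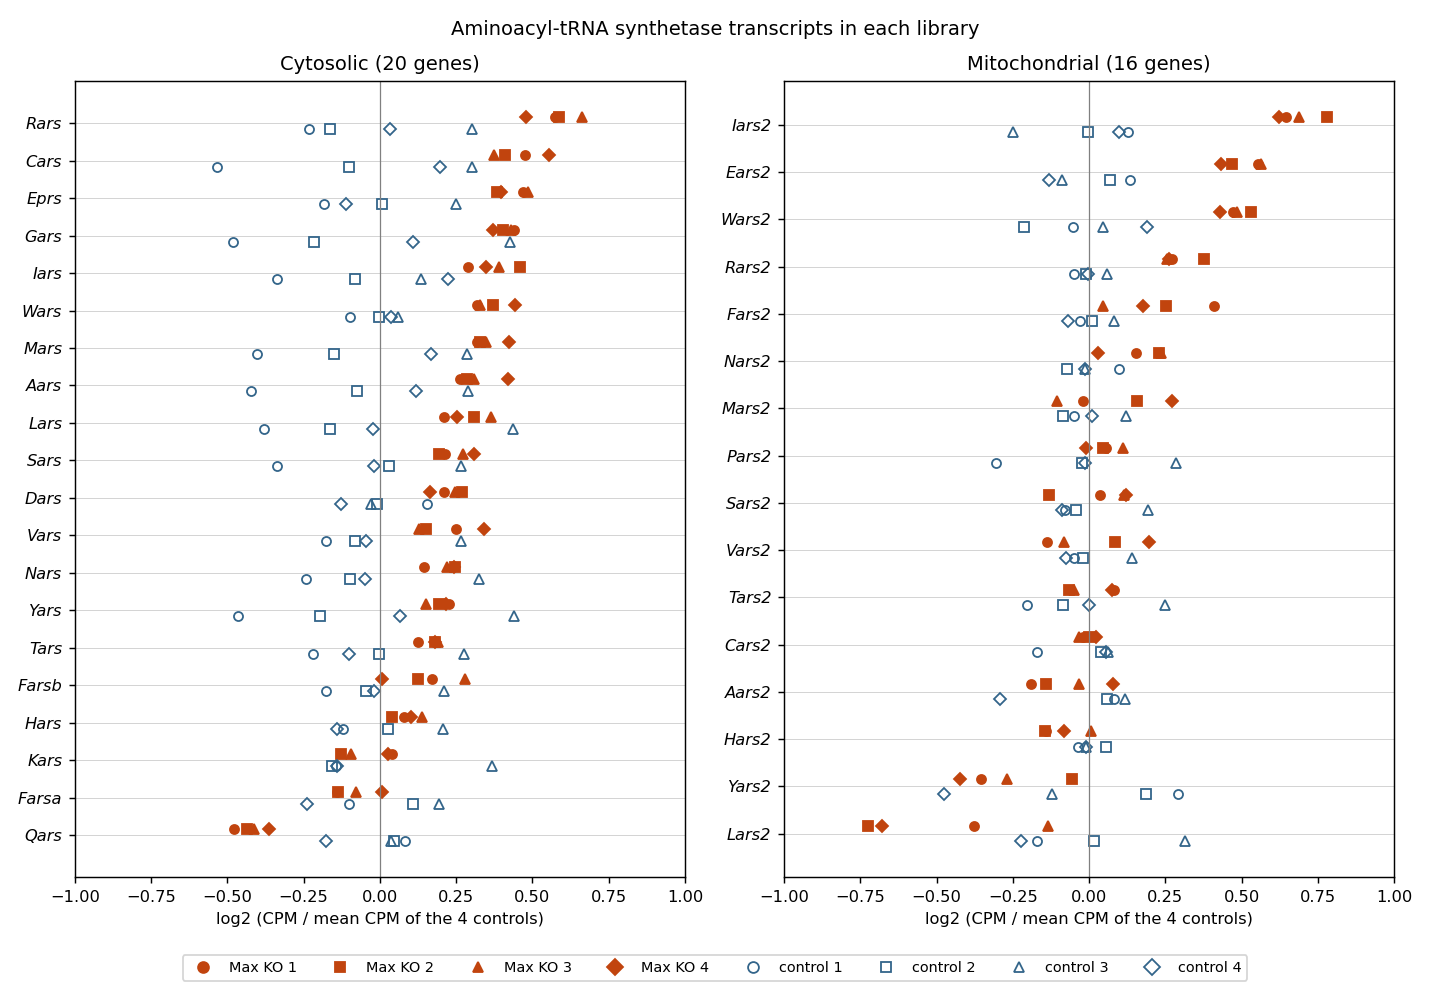
Level of each synthetase gene in each library, as log2 of its CPM over the mean CPM of the 4 controls (x axis), with cytosolic genes on the left and mitochondrial genes on the right. Filled symbols are Max KO and open symbols control. For most cytosolic genes the 4 Max KO libraries cluster tightly while the controls spread widely, with control 1 on the left and control 3 on the right.

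Among the mitochondrial enzymes, 4 of 16 genes rose in Max KO, 1 fell and 11 did not pass, or 25% higher and 6.25% lower against 10.9% and 12.2% of all tested genes. Their log2 fold changes ran from -0.46 to 0.68 with a median of 0.05, and 11 of 16 lay above 0. In 4 of them the Max KO libraries were all above the controls, and in 0 all below, against 13.4% and 13.1% of all tested genes. The difference between the medians of the lists, 0.05 for mitochondrial and 0.24 for cytosolic enzymes, was not tested.

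Iars2, the mitochondrial isoleucyl enzyme, had the largest rise of all 36 members. It stood at 107, 117, 110 and 105 CPM in Max KO libraries and at 74.6, 68.3, 57.5 and 73.2 CPM in control libraries (0.68, SE 0.09, adjusted p = 0.000295). The groups were far apart, and control 3, the highest control for most cytosolic genes, was the lowest here. Iars2 shares 2034 bases of transcript with its neighbour Rab3gap2, a regulator of the small GTPase Rab3, which also rose (0.31, SE 0.09, adjusted p = 0.0304), though not in 5 of the 8 fits without 1 library. The counting strand was not given, so reads of this shared stretch cannot be assigned to one gene. Iars2 and Eprs also lie near each other on chromosome 1, with a gap of 32 kb that holds 1 protein-coding gene.

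Wars2 and Rars2 are the mitochondrial tryptophanyl and arginyl enzymes, whose cytosolic counterparts rose as well. Wars2 had 33.97, 35.4, 34.3 and 33.0 CPM in Max KO libraries and 23.6, 21.1, 25.3 and 27.9 CPM in control libraries (0.48, SE 0.09, adjusted p = 0.00339). Rars2 had 48.4, 52.0, 47.9 and 48.0 CPM in Max KO libraries and 38.8, 39.8, 41.8 and 40.0 CPM in control libraries (0.29, SE 0.07, adjusted p = 0.0105). Neither gene's groups overlapped, and the Rars2 controls were close together. Rars2 overlaps Orc3, a subunit of the origin recognition complex, which did not pass the threshold (0.02, adjusted p = 0.875). Wars overlaps Wdr25, which did not pass either (0.02, adjusted p = 0.904).

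Ears2, the mitochondrial glutamyl enzyme, had 15.1, 14.2, 15.2 and 13.8 CPM in Max KO libraries and 11.3, 10.8, 9.66 and 9.37 CPM in control libraries (0.50, SE 0.10, adjusted p = 0.00422). The groups were clearly apart. The calls of Iars2, Wars2, Rars2 and Ears2 held in each of the 8 fits without 1 library. Partners of Ears2 in making glutamine-loaded tRNA are the amidotransferase subunits Qrsl1, Gatc and Pet112l, the older symbol of Gatb. Qrsl1 had 26.9, 26.6, 29.8 and 26.1 CPM in Max KO libraries and 22.6, 23.3, 25.7 and 23.3 CPM in control libraries, with groups apart but not past the threshold (0.21, SE 0.08, adjusted p = 0.0969). Gatc had a log2 fold change of 0.09 and Pet112l of 0.04, with adjusted p of 0.451 and 0.844. For glutamine, then, the cytosolic enzyme Qars fell while Ears2, the first enzyme of the mitochondrial route, rose.

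Lars2, the mitochondrial leucyl enzyme, fell, with 375, 294, 443 and 304 CPM in Max KO libraries and 433, 493, 606 and 417 CPM in control libraries (-0.46, SE 0.15, adjusted p = 0.0444). Max KO 3 lay above controls 1 and 4, so the groups overlapped. The call was lost in 5 of the 8 fits without 1 library. Neither pair of controls gave it: the log2 fold change was -0.39 against controls 1 and 2 (adjusted p = 0.0786) and -0.54 against controls 3 and 4 (adjusted p = 0.0628).

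Rn45s, the precursor of ribosomal RNA, moved with Lars2 from library to library. It had 1661, 1298, 2192 and 1331 CPM in Max KO libraries and 2142, 2249, 2443 and 1903 CPM in control libraries (-0.43, SE 0.16, adjusted p = 0.069). The ratio of Rn45s to Lars2 was 4.38 to 4.95 in Max KO libraries and 4.03 to 4.95 in control libraries, so it stayed within a narrow band while both transcripts varied. The Lars2 transcript also shares a stretch of 72 bases, 98.6% identical, with Gm15564, an antisense transcript elsewhere in the genome. The part of Rn45s and of this stretch in the Lars2 count was not tested. Without Lars2, 4 of 15 mitochondrial genes rose and 0 fell, with a median of 0.06.

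**Figure D2:**
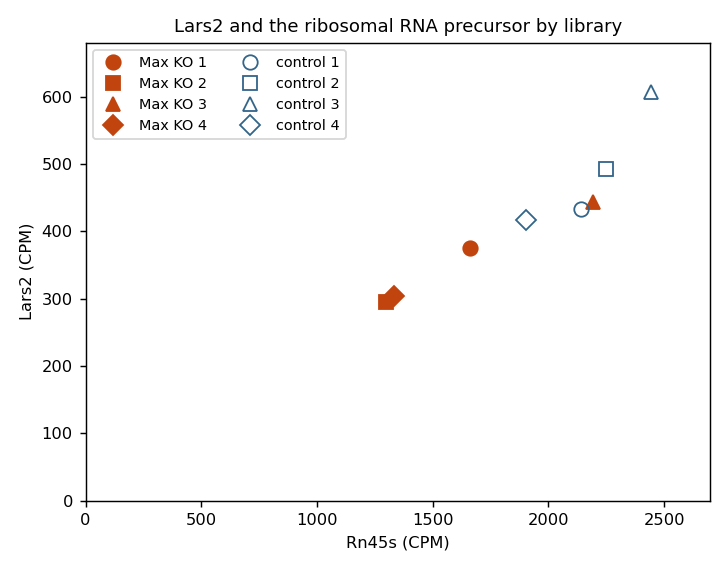
Lars2 (y axis, CPM) against Rn45s (x axis, CPM), 1 point per library, with Max KO filled and control open. Libraries with more Rn45s had more Lars2, from 294 CPM in Max KO 2 to 606 CPM in control 3.

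The other 11 mitochondrial genes did not pass the threshold, from -0.27 for the tyrosyl enzyme Yars2 to 0.23 for the phenylalanyl enzyme Fars2. Cars2, the mitochondrial counterpart of Cars, had 23.4, 23.7, 23.2 and 24.1 CPM in Max KO libraries and 21.0, 24.4, 24.7 and 24.6 CPM in control libraries (-0.01, SE 0.08, adjusted p = 0.969). Pars2, the mitochondrial prolyl enzyme, had 18.3, 18.2, 19.0 and 17.5 CPM in Max KO libraries and 14.2, 17.3, 21.4 and 17.4 CPM in control libraries (0.06, SE 0.12, adjusted p = 0.778). In both genes the Max KO values lay inside the range of the controls.

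**Figure D3:**
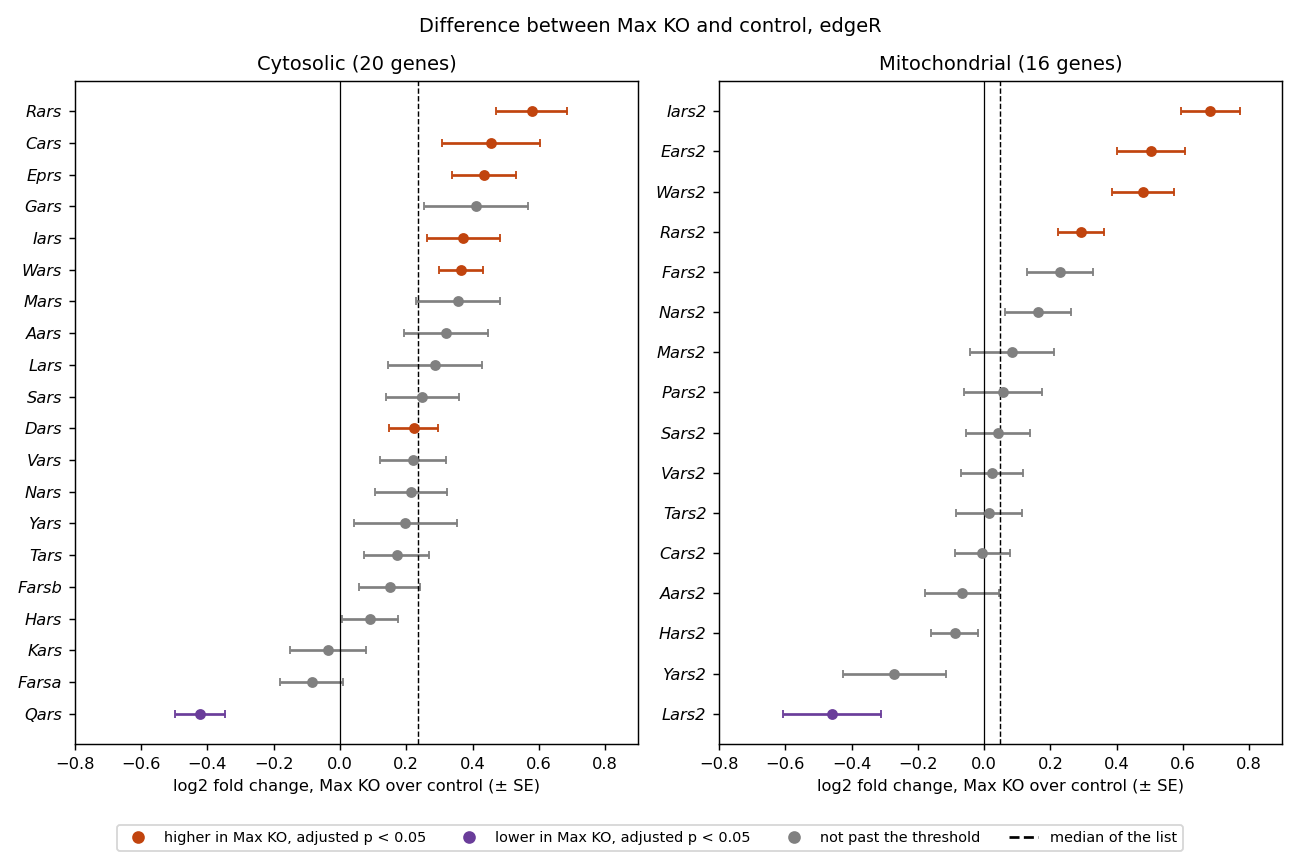
Log2 fold change of Max KO over control with its standard error (x axis) for each synthetase gene, cytosolic on the left and mitochondrial on the right. Coloured points passed an edgeR adjusted p of 0.05, and the dashed lines mark the medians, 0.24 for cytosolic and 0.05 for mitochondrial genes.

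To set the compartments side by side within a library, the log2 ratio of cytosolic to mitochondrial counts was taken for 17 pairs of enzymes for the same amino acid. The ratio uses counts that are not scaled by length, so only its difference between groups was read. It was higher in every Max KO library than in every control library for 4 pairs, lower in every one for 0, and overlapped for 13. For single genes, 13.4% of all tested genes were higher in this way and 13.1% lower, and no such share was taken for pairs. Eprs and Fars2 each stand in more than 1 pair, so the pairs are not all separate. The mean difference lay above 0 for 12 pairs and below 0 for 5. Without control 3 it was higher in every Max KO library for 8 pairs, and without control 1 or control 4 it was lower in every one for 1.

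The ratio of Cars to Cars2 was 2.82, 2.74, 2.74 and 2.86 on the log2 scale in Max KO libraries and 1.97, 2.19, 2.57 and 2.47 in control libraries, a mean difference of 0.49. That of Eprs to Pars2 was 5.14 ± 0.04 in Max KO and 4.77 ± 0.09 in control (SD, n = 4 each), a difference of 0.38, and that of Sars to Sars2, the seryl enzymes, differed by 0.22. The ratio of Lars to Lars2 differed by 0.78, with the Lars2 count subject to what is given above for Rn45s. In these 4 pairs the balance lay further toward the cytosolic transcript in all Max KO libraries.

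Isoleucine went the other way on average. The ratio of Iars to Iars2 was 0.75, 0.78, 0.81 and 0.83 in Max KO libraries and 0.64, 1.02, 1.49 and 1.23 in control libraries, a difference of -0.30. Control 1 lay below every Max KO library and the other controls above, so the groups overlapped although both genes rose. For tryptophan the difference was -0.12, also with overlap, so the cytosolic and mitochondrial transcripts rose by amounts that this ratio did not separate.

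The spread of the controls bore on the cytosolic genes more than on the mitochondrial ones. Control 3 was the highest control for 17 of 20 cytosolic genes and 10 of 16 mitochondrial genes, against 30.6% of all tested genes. Control 1 was the lowest control for 15 of 20 cytosolic genes and 5 of 16 mitochondrial genes, against 25% of all tested genes. The median coefficient of variation of the cytosolic genes was 3.82% among Max KO libraries and 16.8% among control libraries, and it was larger in control for 20 of 20 genes, against 9 of 16 mitochondrial genes and 74.4% of all tested genes. For the mitochondrial genes it was 5.99% in Max KO and 9.16% in control, and for all tested genes 7.62% in Max KO and 12.4% in control. Reads outside annotated genes made up 20.5% to 21.5% of Max KO libraries, 18.5% and 18.6% of controls 1 and 2, and 23.3% and 23.4% of controls 3 and 4, and their part in these results was not tested.

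Summed over the 20 cytosolic genes, the Max KO libraries held 4527, 4487, 4576 and 4614 CPM, against 3142, 3578, 4589 and 3768 CPM in control libraries. Control 3 alone reached the Max KO level. The 15 mitochondrial genes other than Lars2 summed to 475, 492, 481 and 482 CPM in Max KO libraries and 415, 418, 432 and 413 CPM in control libraries, with no overlap and little spread in either group. With Lars2 the mitochondrial sum was 786 to 924 CPM in Max KO and 830 to 1038 CPM in control, which overlapped.

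**Figure D4:**
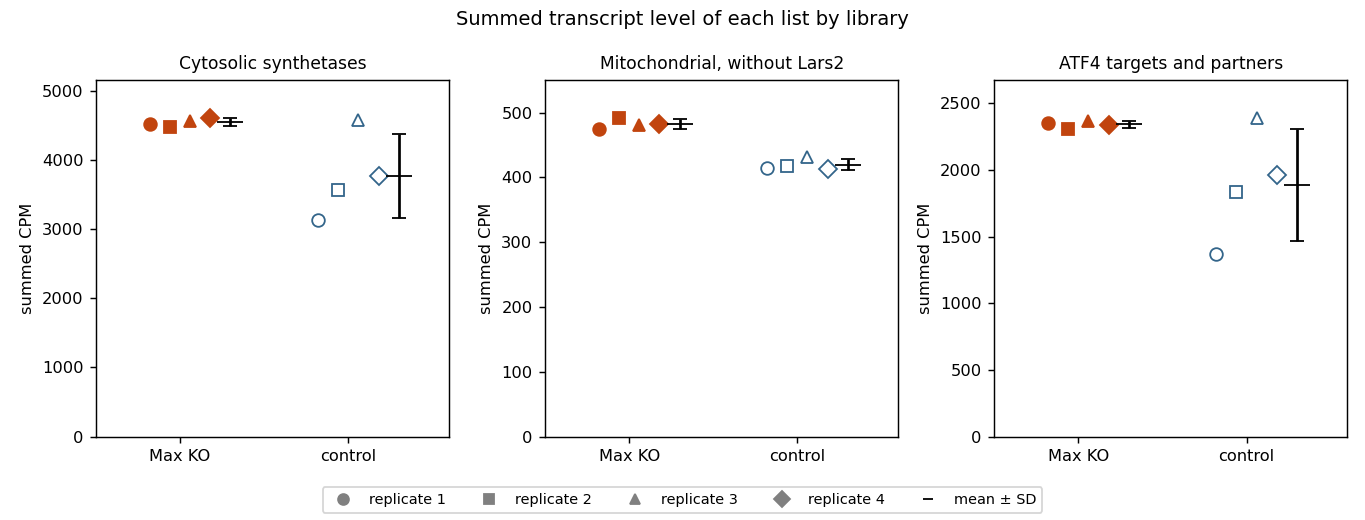
Summed CPM of 20 cytosolic synthetases, of 15 mitochondrial synthetases without Lars2 and of 15 tested ATF4 target and partner genes with 1 more under the filter (y axes, from 0), with 1 symbol per library and the mean ± SD beside it. Max KO libraries sit close together in each panel, and control 3 reaches their level in the first and last panels only.

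Fits with either pair of controls, chosen after the data were seen, gave very different counts for the cytosolic list. Against controls 1 and 2, 15 of 20 cytosolic genes rose while Qars fell, with a median of 0.40, where 44.6% of 13604 tested genes were called, 22% higher and 22.6% lower. Against controls 3 and 4, 4 rose while Qars fell, with a median of 0.10, where 20.7% of 13552 tested genes were called, 9.39% higher and 11.3% lower. Without control 3 alone, 14 rose and 1 fell. The 4 that rose against controls 3 and 4 were Rars (0.40, edgeR adjusted p = 0.011), Eprs (0.35, 0.0424), Wars (0.31, 0.0157) and Dars (0.29, 0.0217), while Iars (0.19, 0.145) and Cars (0.20, 0.121) did not pass. Dars in turn did not pass against controls 1 and 2 (0.15, adjusted p = 0.102).

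The mitochondrial counts moved less. Against controls 1 and 2, 4 of 16 genes rose and Yars2 fell (-0.52, edgeR adjusted p = 0.000503), with a list median of 0.14. In that fit 22% of all tested genes were higher and 22.6% lower, so the share that rose was near that of all genes. Against controls 3 and 4, 3 of 16 rose and 0 fell, with a median of 0.01, where 9.39% of all tested genes were higher and 11.3% lower. Iars2 rose by 0.62 and 0.74 on the log2 scale in the fits with controls 1 and 2 and with controls 3 and 4, Ears2 by 0.40 and 0.61, and Wars2 by 0.61 and 0.35, all past the threshold. Rars2 was past it against controls 1 and 2 (0.32, adjusted p = 0.00264) and not against controls 3 and 4 (0.26, adjusted p = 0.0598).

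**Figure D5:**
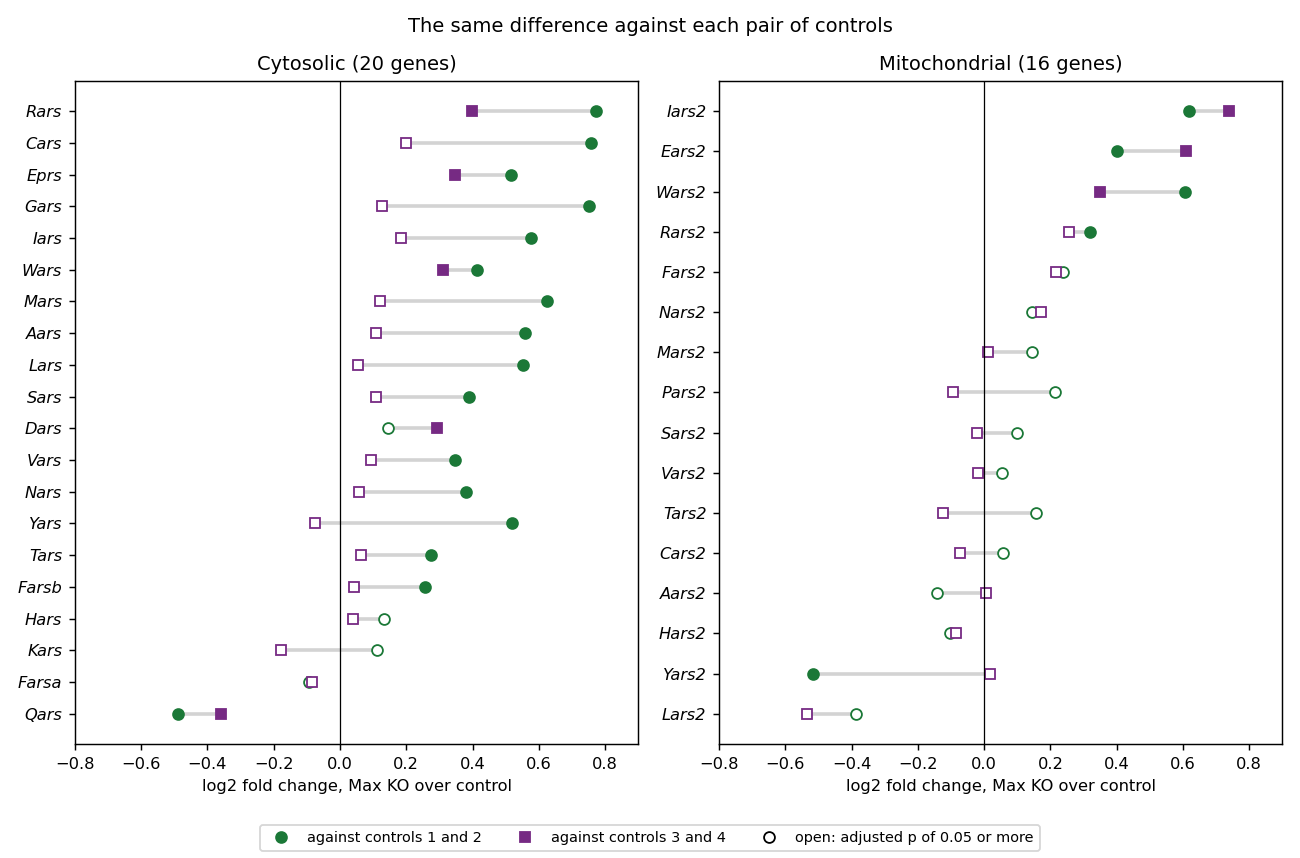
Log2 fold change of Max KO over control for each gene (x axis) in fits with controls 1 and 2 only (circles) and controls 3 and 4 only (squares), with filled symbols past an edgeR adjusted p of 0.05. The 2 values lie far apart for most cytosolic genes, such as Gars at 0.75 and 0.13, and closer for others, such as Wars at 0.41 and 0.31. Mitochondrial genes vary in this too, with Iars2 at 0.62 and 0.74 and Yars2 at -0.52 and 0.02.

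ATF4 targets and partners outside the synthetase family are shown because many cytosolic synthetases share that regulator. Of 15 tested genes 2 rose and 1 fell, or 13.3% and 6.67%, against 10.9% and 12.2% of all tested genes. The median log2 fold change was 0.46. Nupr1, a small stress-induced chromatin protein, rose to 17.1 ± 1.51 CPM in Max KO, against 10.1 ± 1.01 CPM in control (0.76, SE 0.11, adjusted p = 0.000592), and Sesn2, an inhibitor of mTORC1 that senses leucine, rose to 37.7 ± 1.89 CPM, against 25.4 ± 5.73 CPM in control (0.57, SE 0.14, adjusted p = 0.0124; 0.32 against controls 3 and 4). Ddit3, the factor CHOP, which pairs with C/EBP proteins, fell to 22.6 ± 1.76 CPM in Max KO, against 40.8 ± 9.38 CPM in control (-0.85, SE 0.14, adjusted p = 0.00144). Ddit3 and Mars overlap in the genome, and their log2 fold changes had opposite signs.

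By its sum, this list ordered the control libraries as the sum of the cytosolic synthetases did. The sum of the ATF4 list was 2349, 2308, 2369 and 2338 CPM in Max KO libraries and 1369, 1831, 2390 and 1961 CPM in control libraries, again with control 3 at the Max KO level and control 1 the lowest. Asns, the asparagine synthetase, showed it in 1 gene: 423, 403, 419 and 395 CPM in Max KO libraries and 159, 218, 382 and 321 CPM in control libraries (0.60, SE 0.22, adjusted p = 0.0705). In this list 12 genes rose and 2 fell against controls 1 and 2, where 22% of all tested genes were higher and 22.6% lower. Against controls 3 and 4, 3 rose and 1 fell, where 9.39% of all tested genes were higher and 11.3% lower. Control 3 was the highest control for 10 of the 15 tested genes of the list, against 30.6% of all tested genes. Control 1 was the lowest for 12 of the 15, against 25%, so not every gene followed the sum. Atf4 itself did not pass the threshold (0.17, edgeR adjusted p = 0.197). The part of ATF4 in these levels was not tested.

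CARE elements were counted in the promoters, with both this motif and the E-box chosen after the data were seen. TGATGNAA, on either strand, was present in 5 of 13 cytosolic promoters (38.5%) and 0 of 14 mitochondrial promoters, against 3.97% of all 32851 promoter entries of the same length, of which some genes have several. The E-box CACGTG reads the same on both strands. It was present in 4 of 13 cytosolic promoters (30.8%), those of Aars, Farsb, Iars and Tars, against 7.15% of all promoters. Among mitochondrial promoters 1 of 14 held it (7.14%), that of Ears2. No match of one motif overlapped a match of the other. A match is a description of the letters in the window and not a site of binding, and no match says nothing of the factor.
CARE windows of 28 bases from 4 genes are printed with the match in capitals, on the strand of the gene. The search fixed every letter of a match except the N, so the likeness of the matches was set by the search. Apart from Iars, these genes were not past the threshold and were picked for the match after values were seen. Aars, with 2 CARE matches, was not past the threshold either and is not printed.
Iars, chr13:49682127-49682154, plus strand: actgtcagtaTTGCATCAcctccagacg
Tars, chr15:11399656-11399683, minus strand: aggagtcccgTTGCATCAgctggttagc
Gars, chr6:55037961-55037988, plus strand: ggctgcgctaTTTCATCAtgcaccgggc
Yars, chr4:129189896-129189923, plus strand: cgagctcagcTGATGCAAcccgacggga
The match of Iars ran from base 8 to 15 after the start and that of Tars, the threonyl enzyme, from base -15 to -8, and both were the same 8 letters. Yars, the tyrosyl enzyme, held them on the opposite strand. Of these 4 genes Iars was called higher, with Gars at 0.41, Tars at 0.17 and Yars at 0.20 on the log2 scale in the fit with all controls, and Eprs and Qars, whose calls held in every fit without 1 library, had no match in their windows. Rars, Wars and Cars had no entry.

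Among 7 tested genes for editing, selenocysteine and tRNA export, 2 rose and 1 fell, or 42.9% against 23.1% of all tested genes. Xpot, the exporter of tRNA from the nucleus, rose, with 198, 217, 204 and 203 CPM in Max KO libraries and 180, 182, 157 and 168 CPM in control libraries (0.26, SE 0.07, adjusted p = 0.0223), and the groups were apart. Dtd1, which removes D-amino acids from tRNA, rose with overlapping groups (0.28, SE 0.09, adjusted p = 0.037). Tarsl2, a paralog of Tars, fell to 21.1 ± 0.543 CPM in Max KO, against 25.4 ± 1.56 CPM in control (-0.27, SE 0.08, adjusted p = 0.0323). Of the 8 fits without 1 library, Xpot did not pass in 2, Dtd1 in 5 and Tarsl2 in 6. Sepsecs, which makes selenocysteine on its tRNA, did not pass (0.27, adjusted p = 0.084).

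Of 6 cytosolic elongation factors 1 fell and 0 rose, or 16.7% called. Of 9 mitochondrial elongation and other translation factors 1 fell and 0 rose, or 11.1% called. Neither share was above the 23.1% called among all tested genes. Eef1a2, the tissue-restricted form of the factor that delivers charged tRNA to the ribosome, fell, with 174, 156, 175 and 196 CPM in Max KO libraries and 251, 248, 242 and 244 CPM in control libraries (-0.49, SE 0.08, adjusted p = 0.001). Its groups lay far apart, while the widely expressed form Eef1a1 did not pass the threshold (0.14, adjusted p = 0.387). In mitochondria, Mtrf1l, a release factor and not an elongation factor, fell to 13.97 ± 0.728 CPM in Max KO, against 19.5 ± 1.13 CPM in control (-0.48, SE 0.09, adjusted p = 0.00268). Tufm, which delivers charged tRNA in mitochondria, had a log2 fold change of 0.00 (adjusted p = 0.987).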

How the data were processed

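RNA from 8 libraries was sequenced, and the authors deposited whole-number counts for each gene symbol, obtained with bcl2fastq 1.8.4, TopHat2 2.0.12 on mm9 and HTSeq 0.6.1, per the submitters' processing notes. Per the labels' protocols, libraries were made from total RNA extracted with TRIZOL, with an Ultra RNA kit. Neither the gene annotation nor the strand option of HTSeq is given in the sources used here, so overlapping genes cannot be told apart by strand. Rows that name no gene held 27.0% to 33.1% of each file's counts and were left out.

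Genes were kept with filterByExpr (13358 of 23284) and the groups were compared by edgeR 4.0.16 in R 4.3.3. Its quasi-likelihood F test was robust, used TMM factors and had no term besides group, and p-values were adjusted by Benjamini-Hochberg over every gene kept. The procedure was tested on simulated counts. Standard errors were derived from the log2 fold change and the F statistic. Pair ratios used a prior count of 0.5. Values per library are given for members past the adjusted p of 0.05 and for the pair partners of the cytosolic ones, the rest by counts and range, with up to 4 genes of smallest p per related list. Asns, Atf4, Chga, Chgb, Uchl1, Calca, Pdgfra, Krt5, Lum, Pet112l, Tufm, Rn45s, Rab3gap2, Orc3 and Wdr25, and the members with a motif match, were named, and the library values of Mars, Asns, Calca and Rn45s given, after values were seen. Members and lists were chosen with earlier results of these data known.

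Results were recomputed with RLE or upper-quartile factors, no filter, at least 1 CPM in 4 libraries, DESeq2 1.42.0, limma-voom (limma 3.58.1), the replicate number as a term, a prior of 2 CPM for pair ratios, and leaving out each library. Fits with either pair of controls were added after the data were seen. Libraries with the same number did not deviate together, so the number was not used. Within Max KO, pairs of libraries differed by more than sampling noise (chi-square per degree of freedom of 3.70 to 9.34). Control pairs ranged from 4.55 for controls 1 and 2 to 35.7, with 24.5 for controls 3 and 4, and pairs across groups from 18.5 to 40.1. RefSeq promoters (GRCm38.p6) and GENCODE M21 transcripts served for motifs, overlaps and near-identical copies. Files on mm9 carry no positions.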

Additional observations from a re-analysis of the deposited data

Results flagged for a closer look

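In 6 of 72 sets of 4 libraries, 1 for each gene and group, 1 library stood far from the other 3 (its gap to the nearest, as a share of the range, past Dixon's critical value), where chance gives about 1 in 20. Kars, the lysyl enzyme, stood at 285 CPM in control 3 and at 199 to 201 CPM in the other controls (share 0.973), and without control 3 its log2 fold change was 0.11 in place of -0.04. Sars2, the mitochondrial seryl enzyme, was also high in control 3, at 27.4 CPM against 22.6 to 23.3 CPM (0.85). Aars2, the mitochondrial alanyl enzyme, was low in control 4, at 15.0 CPM against 19.1 to 19.9 CPM (0.841), and Cars2 was low in control 1, at 21.0 CPM against 24.4 to 24.7 CPM (0.896). Rars2 was high in Max KO 2, at 52.0 CPM against 47.9 to 48.4 CPM (0.871), and Tars was low in Max KO 1, at 115 CPM against 120 to 121 CPM (0.83).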

How the results depend on the processing

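The count of cytosolic genes that rose was 3 with upper-quartile factors, 15 with controls 1 and 2 only and 3 to 14 without 1 library, where 6 rose in the reported fit. Their median log2 fold change was 0.40 with controls 1 and 2 only and 0.17 to 0.36 without 1 library. Mitochondrial genes that rose numbered 4 in the reported fit and in every alternative run except 3 with controls 3 and 4 only, while those that fell numbered 0 with no filter and with controls 3 and 4 only, and 0 to 2 without 1 library. The mitochondrial median was 0.14 with controls 1 and 2 only and 0.0046 to 0.12 without 1 library. In the 7 related lists, with 4 higher and 10 lower, 8 were higher with DESeq2, 7 with limma-voom, 20 with controls 1 and 2 only and 2 to 16 without 1 library, and 6 were lower with controls 3 and 4 only and 5 to 13 without 1 library. Over all genes, 2987 were higher and 3081 lower with controls 1 and 2 only, and 963 to 1846 were higher and 1139 to 1929 lower without 1 library. The causes of these changes were not tested.

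Among members, scaffold genes and the other genes given with values for charging partners and mitochondrial factors, those not past the threshold changed sign as follows. With controls 3 and 4 only, the log2 fold change was -0.074 for Yars, 0.0048 for Aars2, -0.094 for Pars2, -0.022 for Sars2, -0.12 for Tars2, -0.020 for Vars2, 0.018 for Yars2, -0.030 for Aimp2, 0.023 for Eef1e1, 0.079 for Aimp1, -0.019 for Gatc, -0.051 for Pet112l and -0.11 for Tufm. With controls 1 and 2 only it was 0.11 for Kars and 0.055 for Cars2. Upper-quartile factors gave -0.0052 for Sars2, -0.033 for Tars2, -0.024 for Vars2, -0.0067 for Pet112l and -0.044 for Tufm, a filter of 1 CPM gave -0.0079 for Tufm, and limma-voom gave 0.00044 for Cars2. Without 1 library the values ran from -0.094 to 0.11 for Kars, -0.066 to 0.016 for Cars2, -0.041 to 0.16 for Pars2, -0.054 to 0.11 for Tars2, -0.048 to 0.071 for Vars2, -0.088 to 0.013 for Aimp1, -0.0078 to 0.12 for Pet112l and -0.053 to 0.11 for Tufm.

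Of the 36 members, 35 kept direction and side of the threshold with RLE factors, 34 with DESeq2, 35 with limma-voom and 30 with upper-quartile factors, but 23 without control 3, 21 with controls 1 and 2 only and 25 with controls 3 and 4 only. Dars, at an adjusted p of 0.0491, was not past the threshold with RLE factors (0.0506), and Mars and Gars passed it with DESeq2 (0.0359 and 0.0398). With the replicate number as a block, 1208 genes were higher and 1324 lower, 6 cytosolic genes were higher and 1 lower, 4 mitochondrial genes were higher and 1 lower, and 5 related genes were higher and 8 lower. The block ended the call of Dars (adjusted p = 0.0829). The numbers name libraries only: correlations of same-numbered libraries' deviations were -0.20 to 0.002. The lowest level of any member was 6.64 CPM, or 98 counts, for Mars2 in Max KO 3, and the part of depth in the calls was not tested. The spread of the controls, overlapping genes and the unknown strand setting limit these values.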
